A study of Mus musculus with 12 samples.

Results

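*Fabp5*, *Cidea*, *Cideb* and *Hilpda* are the fatty acid binding and lipid droplet genes of a NanoString nCounter panel for neuroinflammation, and all 4 of these names were present among its 770 genes. They were taken by name, by a rule that uses no measured value, although earlier results of these data were known, and all 4 are kept below whatever their level. Cells store surplus fatty acids as neutral lipid in droplets, which are coated by proteins that control how the store is filled and emptied. FABP5 is a small cytosolic carrier that binds long-chain fatty acids and brings them to enzymes and nuclear receptors. The CIDE proteins, CIDEA and CIDEB, sit on lipid droplets and the endoplasmic reticulum, where CIDEA promotes droplet fusion and CIDEB acts in the lipidation of lipoproteins in liver. HILPDA is a droplet protein induced by hypoxia and by fatty acids, and it inhibits adipose triglyceride lipase, the enzyme that starts droplet breakdown. Lipid droplets accumulate in microglia, the resident macrophages of the CNS, with age and after uptake of myelin.

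The study compared microglia of aged mice with active and inactive ERK1/2 signaling, and both with microglia of younger adults. Samples 2, 5, 7 and 8 held aged cells with strong staining (P-ERK1/2 High, n = 4), samples 3, 6, 9 and 12 aged cells with weak staining (P-ERK1/2 Low, n = 4), and samples 1, 4 and 10 adult cells that were sorted without regard to the staining (n = 3). Aged mice were over 80 weeks old and adult mice 12 to 20 weeks, all are labelled C57B6 and untreated, and each sample pooled the CNS of a male and a female. The groups follow the sample titles, and a second label field reads aged and ERK for all 12 samples, the adult ones included. A further adult sample, number 11, carries a title that excludes it for poor quality and was left out of every comparison unless stated. All cells were enriched on CD11b beads, fixed, permeabilized, stained for ERK1/2 phosphorylated at Thr202/Tyr204 and sorted as YFP+, CD45 intermediate and Ly6G-, with YFP driven by the *Cx3cr1* promoter. The figure legend of the study places the adult mice shortly after tamoxifen and the aged mice long after it, so age and time since tamoxifen cannot be told apart between adult and aged samples. The labels do not say whether a High and a Low sample came from the same animals, nor what batch a sample was run in, and p-values measure the spread between these pooled samples. In RNA from sorted pools, fewer cells of a type and less RNA per cell cannot be told apart.

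Of the members, *Hilpda* is a known target of the hypoxia-inducible factor HIF. RefSeq (GRCm38.p6) gives 2 promoter windows of 300 bases for it, each spanning an annotated start and lying mostly upstream of it, at chr6:29272238-29272537 and chr6:29272376-29272675, both on the + strand. The HIF core letters ACGTG and GCGTG were searched on both strands. The first window held 1 match and the second held 3, one of which lies in both windows. The 3 stretches are shown because *Hilpda* is set beside other HIF targets below, with the matched letters in capitals, read 5′ to 3′ on the + strand, in the order of their position from the start of the second window's transcript (-111, -43 and -8):
chr6:29272504-29272530: aaccgcgagccGCGTGctttccgtgac
chr6:29272572-29272598: atggccagcggACGTGccccagggcga
chr6:29272607-29272633: aggttcggtacGCGTGcgcagtctccg
Of 32851 RefSeq promoter windows, 43.8% held at least 1 match and 8.93% held 3 or more. The 1 *Cideb* window held 1 match.

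The deposited values are counts multiplied by 1 factor per sample, which brings the geometric mean of 13 housekeeping genes to the same level in all samples. The High samples had 650965 to 1539936 counts each, the Low samples 123798 to 157209 and the adult samples 137980 to 326575, so weakly expressed genes are measured least well in Low and adult samples. A gene was taken as above background when its count passed the sample's negative controls (mean of 8 probes plus 2 SD), which is 20.6 to 41.9 counts and, on the normalized scale, 26.1 to 39.5 in High, 69.2 to 116.9 in Low and 37.9 to 95.1 in adult samples. Groups were compared with limma on log2(value + 1) over all 770 genes, and a gene was called at p under 0.01 with a log2 fold change beyond 1. The adjusted p-values follow Benjamini and Hochberg, and all tests are two-sided. Fold changes of low genes on this scale include background, which can make them too small, too large or of the wrong sign. Limma called 37.8% of genes between High and Low (28.2% higher and 9.61% lower in High), 10.8% between Low and adult, and 36.9% between High and adult. Groups did not overlap for 49.4%, 36.5% and 50.3% of genes in the same order. Of the 4 lipid genes, 2 were called between High and Low, 1 between Low and adult and 2 between High and adult. The 3 comparisons share samples in pairs and are not independent of each other.

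*Fabp5* was the one member far above background in every sample, and as deposited it was lowest in adult, intermediate in Low and highest in High samples, with no overlap between any 2 groups. The step from adult to Low depends on the scaling, since the counts themselves overlapped (655 to 1676 in adult and 829 to 1092 in Low samples). The adult samples read 1558.73, 1951.7 and 1618.36 normalized counts in samples 1, 4 and 10. The P-ERK1/2 Low samples read 3062.97, 2906.29, 2921.31 and 4159.68 in samples 3, 6, 9 and 12, so that the lowest Low sample stood above the highest adult one. The P-ERK1/2 High samples read 8265.34, 8798.03, 5600.03 and 10128.26 in samples 2, 5, 7 and 8. Sample 7 was the lowest of the High samples and was still above sample 12, the highest of the Low samples. The group means were 1710 ± 212 in adult (SD, n = 3), 3263 ± 602 in Low (SD, n = 4) and 8198 ± 1901 in High (SD, n = 4).

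**Figure D1:**
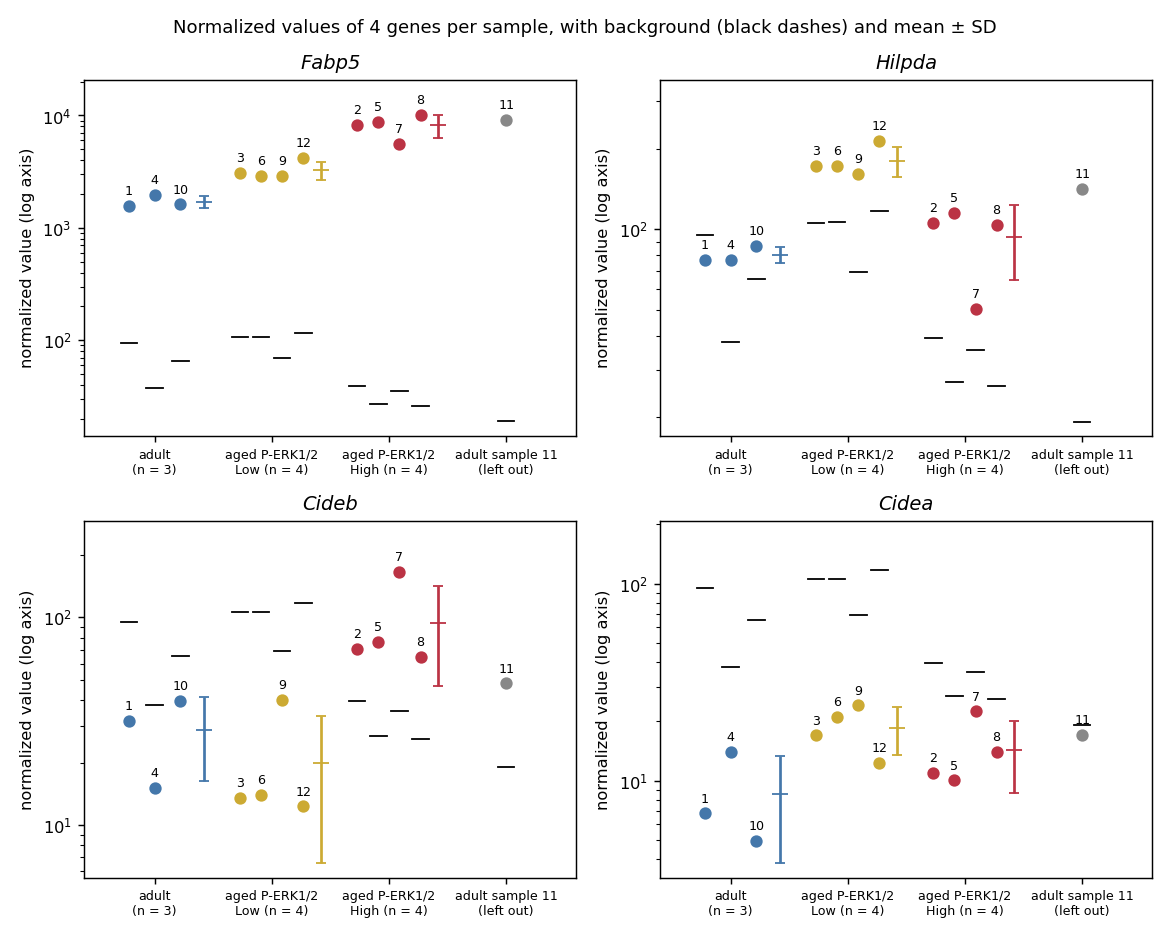
Normalized values of *Fabp5*, *Hilpda*, *Cideb* and *Cidea* on log axes, 1 point per sample with its sample number, beside the mean ± SD of each group. Black dashes mark the background of each sample. *Fabp5* lies far above them in all 12 samples, *Cideb* exceeds them in sample 11 and all 4 High samples, and *Cidea* exceeds them in none.

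Between P-ERK1/2 High and Low, *Fabp5* was 2.51 times as high by the ratio of means, with a log2 fold change of 1.31 ± 0.25 (SE, limma adjusted p = 0.001). It ranked 177 among the 770 genes ordered from the largest increase. Its log2 fold change lay 1.06 above the panel median of 0.26. With all samples set to equal totals, *Fabp5* read 0.28 and was not called (limma adjusted p = 0.17), and with quantile normalization or background subtraction it stayed higher at 0.80 and 0.96, under the fold limit. Between P-ERK1/2 High and adult, *Fabp5* rose 4.79-fold by the ratio of means, at a log2 fold change of 2.24 ± 0.27 (SE, limma adjusted p = 0.00011), and ranked 63. With equal totals this difference was 0.82 and not called (limma adjusted p = 0.0069). Between P-ERK1/2 Low and adult it read 0.92 ± 0.18 (SE, limma adjusted p = 0.0085) and ranked 77, which passed the p threshold and missed the fold limit, with a ratio of means of 1.91. This difference was 0.47 with quantile normalization, 0.53 with equal totals, 0.07 without scaling (limma adjusted p = 0.88) and 0.11 with positive-control scaling (limma adjusted p = 0.82). When adult sample 11, with a *Fabp5* value of 9096.14, was added, the log2 fold change of High over adult became 1.63 (limma adjusted p = 0.16) and that of Low over adult 0.32 (limma adjusted p = 0.8).

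*Hilpda* had a different order: it was highest in P-ERK1/2 Low, and the adult and P-ERK1/2 High samples overlapped. The Low samples read 172.8, 171.78, 160.51 and 213.32 normalized counts in samples 3, 6, 9 and 12. The High samples read 105.9, 115.08, 50.53 and 103.89 in samples 2, 5, 7 and 8, with sample 7 below the others. The adult samples read 77.14, 76.86 and 86.48 in samples 1, 4 and 10, inside the range of the High samples. Every Low sample was above every sample of the other groups that entered the comparisons. These levels rest on few molecules: *Hilpda* had 45 to 161 counts in High, 49 to 60 in Low and 34 to 66 in adult samples, and adult sample 1 was below its background.

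Between P-ERK1/2 Low and adult, *Hilpda* rose 2.24-fold by the ratio of means, with a log2 fold change of 1.15 ± 0.15 (SE, limma adjusted p = 0.0018), and ranked 50 among the 770 genes. It was not called with a pseudocount of 20 (0.99), equal totals (0.77), without scaling (0.30), with positive-control scaling (0.33) or with sample 11 added (0.94, limma adjusted p = 0.15). Between P-ERK1/2 High and Low its log2 fold change was -0.99 ± 0.28 (SE, limma adjusted p = 0.01), a ratio of means of 0.522, and it ranked 693, near the lowest end of the panel. That difference passed the p threshold and fell just short of the fold limit, with a 95% interval of -1.60 to -0.38. Leaving out 1 sample gave -0.72 without High sample 7 and -0.90 without Low sample 12, neither called, and -1.004 to -1.11 without any 1 of the other 6, each called. Between High and adult the log2 fold change was 0.16 ± 0.31 (SE, limma adjusted p = 0.7), with a 95% interval of -0.53 to 0.85, whereas with equal totals it was -1.24 and called lower in High (limma adjusted p = 0.0023).

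Because 1 factor scales all genes of a sample, the ratio of the *Fabp5* to the *Hilpda* count in the same sample does not depend on the scaling between samples. Each probe captures its target with its own efficiency, so only the change of this ratio between samples is read, not its size. The ratio was 78.0, 76.5, 111 and 97.5 in P-ERK1/2 High samples 2, 5, 7 and 8. It was 17.7, 16.9, 18.2 and 19.5 in P-ERK1/2 Low samples 3, 6, 9 and 12, and 20.2, 25.4 and 18.7 in adult samples 1, 4 and 10. The High samples stood apart from both other groups, which overlapped, at a mean of 90.8 ± 16.6 (SD, n = 4) against 18.1 ± 1.09 (SD, n = 4) and 21.4 ± 3.52 (SD, n = 3). With the mean negative control count subtracted from both genes, the ratio was 85.5 to 158 in High, 21.1 to 23.8 in Low and 26.1 to 31.2 in adult samples, so that Low and adult samples no longer overlapped. Adult sample 1, at 20.2 before and 31.2 after the subtraction, had a *Hilpda* count below its background, so its ratio is not a measured level, and the other 2 adult samples read 30.6 and 26.1 after it. Sample 11, labelled adult, had a ratio of 64.1 before and 68.3 after this subtraction, between the kept adult and the High samples.

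**Figure D2:**
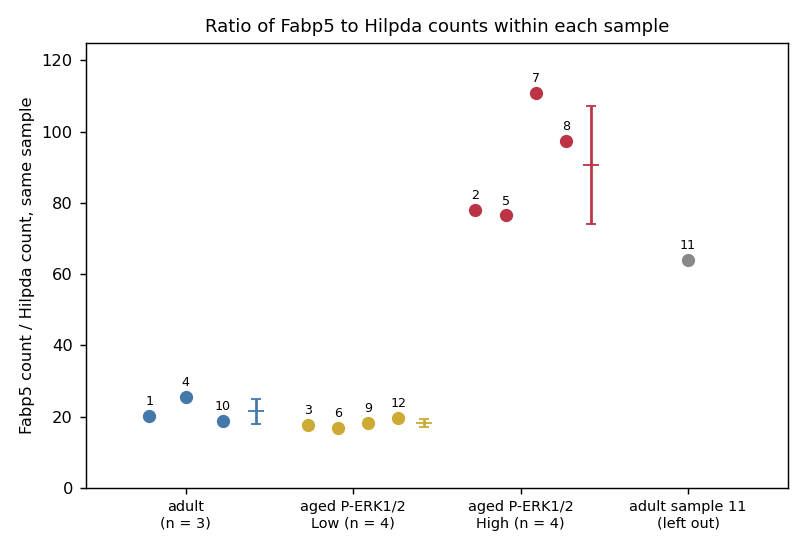
Ratio of the *Fabp5* count to the *Hilpda* count within each sample (linear axis from 0, no unit), 1 point per sample with its number, beside the mean ± SD of each group. The 4 P-ERK1/2 High samples lie between 76.5 and 111, whereas all Low and kept adult samples lie between 16.9 and 25.4.

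*Cideb* was above background in all 4 P-ERK1/2 High samples and in no P-ERK1/2 Low or kept adult sample. The High samples read 70.6, 76.48, 165.07 and 64.62 normalized counts in samples 2, 5, 7 and 8, which are 51 to 147 counts. The Low samples read 13.55, 14.02, 40.13 and 12.31 in samples 3, 6, 9 and 12, from 3 to 15 counts, and the adult samples 31.76, 15.14 and 39.53 in samples 1, 4 and 10, from 13 to 16 counts. The High values did not overlap those of either group, and sample 7, the lowest of the High samples for *Fabp5* and *Hilpda*, was the highest for *Cideb*. Limma called *Cideb* higher in High than in Low (adjusted p = 0.00071) and higher than in adult samples (adjusted p = 0.0066). Set against the background of the adult samples, *Cideb* was at least 1.41-fold higher in High, where the measured means were 94.2 and 28.8. Against Low, whose background lay near the High values, no lower bound above 1 could be given, and the measured means were 94.2 and 20.0. With sample 11 added, the difference from adult samples had a limma adjusted p of 0.15 and still met the rule, which uses the unadjusted p. With equal totals limma called neither difference (adjusted p = 0.05 against Low and 0.65 against adult).

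*Cidea* was not above background in any of the 12 samples. Its counts ran from 9 to 20 in P-ERK1/2 High, from 3 to 9 in P-ERK1/2 Low and from 2 to 12 in adult samples, and 22 in sample 11. Limma called it in none of the 3 comparisons, with adjusted p-values of 0.29 for High against Low, 0.049 for Low against adult and 0.13 for High against adult. A difference in *Cidea* was not detectable at this depth, and no fold change is given for it.

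The direction of the *Hilpda* difference between P-ERK1/2 High and Low depended on the level to which samples were brought. It was -1.24 with median-of-ratios scaling, -1.26 with quantile normalization and -2.01 with equal totals, and limma called it in each of these. With the 6 most stable housekeeping genes it was -0.22, and without scaling or with scaling to the positive control probes it was 0.67 and 0.98. The median of all genes moved along, from -0.76 with equal totals to 2.15 with positive-control scaling, and relative to that median *Hilpda* was lower by a log2 difference of -1.24 as deposited and *Fabp5* higher by 1.06. Settings that apply 1 factor per sample leave this distance nearly fixed by construction, so only quantile normalization and background subtraction bear on it. They gave -1.16 and -1.61 for *Hilpda*, and 0.90 and 0.65 for *Fabp5*. Between Low and adult, *Hilpda* lay above the median by 1.04 as deposited, and by 1.05 and 1.28 in these 2 settings. The housekeeping genes behind the deposited scaling did not move as 1 group between High and Low, from a log2 difference of 3.34 for *Supt7l* to -1.23 for *Lars*. The 6 most stable were picked for varying least against each other. All 6 read lower in High than in Low as deposited, from -0.52 for *Tada2b* to -1.23 for *Lars*.

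**Figure D3:**
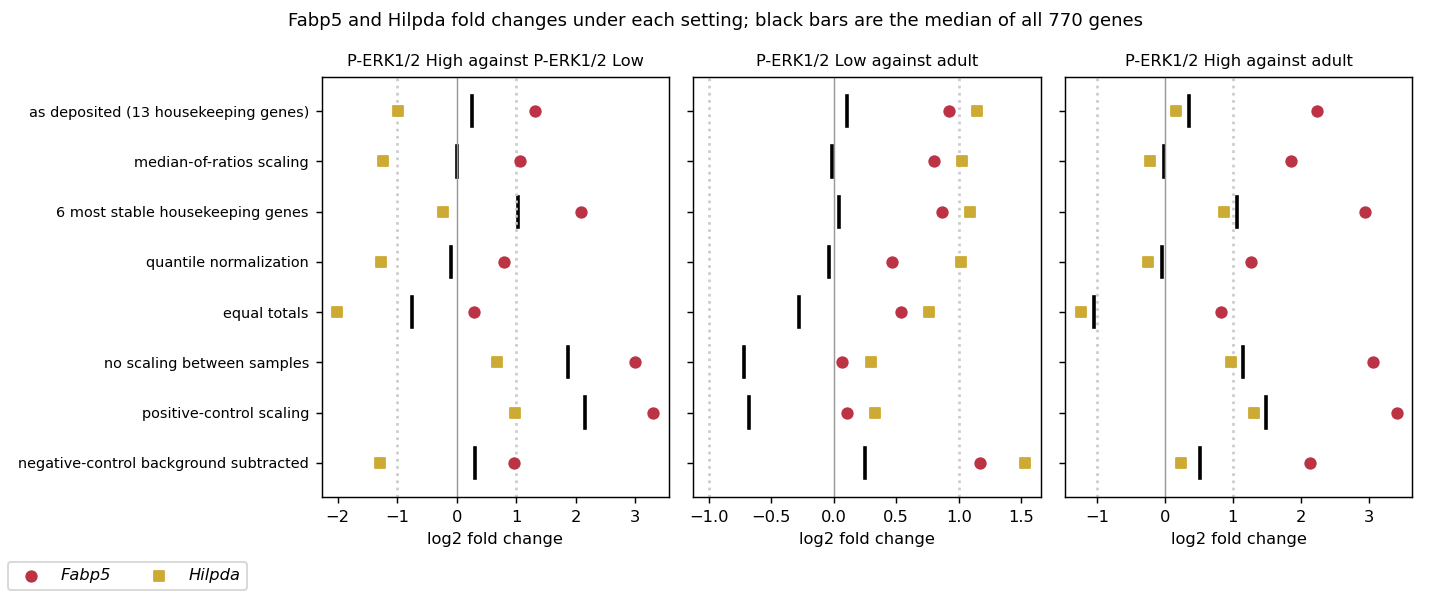
Log2 fold changes of *Fabp5* and *Hilpda* (horizontal axes) under 8 ways to set the samples to a common level (rows), in the 3 comparisons. Black bars mark the median of all 770 genes, and grey lines mark 0 and the fold limit of 1. Between High and Low, *Hilpda* lies left of the black bar and *Fabp5* right of it in every row, and the distance is nearly the same by construction where 1 factor scales a sample.

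The genes whose pattern was most like that of each member were found by the Pearson correlation of log2(value + 1) over the 11 kept samples, among the genes with a mean value of at least 50. For *Fabp5* they were *Tpd52* (r = 0.993), *S100a10* (r = 0.993) and *Rps2* (r = 0.988), whose means, like those of *Fabp5*, were lowest in adult and highest in P-ERK1/2 High samples. *S100a10*, which encodes a binding partner of annexin A2, had means of 1120 in adult, 2580 in Low and 7380 in High samples. For *Hilpda* they were *Itga6* (r = 0.969), *Csf2rb* (r = 0.962) and *Dab2* (r = 0.949). *Itga6*, the laminin receptor subunit integrin alpha 6, had means of 434 in adult, 936 in Low and 437 in High samples, with the highest level in Low as for *Hilpda*. *Cideb*, itself at a mean of 49.4, came closest to *Gjb1* (r = 0.934), *Rbfox3* (r = 0.932) and *P2ry12* (r = 0.928). *Cideb* was below background in 7 of these 11 samples, and none of its 3 partners was above background in a Low sample. *Gjb1* and *Rbfox3* reached the mean of 50 through the High samples, which by itself favours a likeness to *Cideb*. With the group means removed, r was 0.771, 0.722 and 0.783 in the same order. *Cidea*, at a mean of 14.3, reached at most r = 0.514, with *Rac2*. All points share the scaling factor of their sample, which adds to such correlations. *Fabp5* and *Hilpda* had r = 0.053 with each other over the 11 samples, and *Cideb* and *Hilpda* had r = -0.638.

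The other lipid genes of the panel also did not move as 1 group. Of 6 genes for lipid uptake and lipoproteins, 2 fell and none rose between P-ERK1/2 High and Low as deposited, a total share close to the 37.8% of all genes, with a list median of -0.36 against 0.26 for all genes. This split turned to 4 higher and none lower without scaling and with positive-control scaling, and was 1 higher and none lower with the 6 housekeeping genes and 4 lower with equal totals. The scavenger receptor and fatty acid transporter *Cd36* had means of 1090 in High and 2730 in Low samples (log2 fold change -1.56 ± 0.44, SE) and *Apoe*, the main lipoprotein component made in the CNS, had 988 and 2420 (-1.34 ± 0.27, SE). Both were called lower in 4 of 7 other settings and had the opposite sign in 2, without scaling and with positive-control scaling. Between Low and adult, where 8.05% of all genes were called higher and 2.73% lower, 2 of the 6 rose and 1 fell: *Cd36* by 2.47 ± 0.19 (SE) and the scavenger receptor *Msr1* by 1.71 ± 0.14 (SE), while the lipoprotein receptor *Lsr* had means of 50.5 and 122 and was above background in no Low sample. *Cd36* kept this call in all 7 other settings and *Msr1* in 5. Between High and adult, where 36.9% of all genes were called, *Msr1* rose by 2.63 ± 0.44 (SE), and *Apoe* (-1.82 ± 0.31, SE) and *Lsr* (-1.45 ± 0.32, SE) fell, calls kept in 5 and 4 of 7 other settings. By group mean, *Cd36* was highest in Low, as *Hilpda* was, and *Msr1* highest in High, as *Fabp5* was.

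For the genes of oxysterol synthesis, eicosanoids and sphingolipids, the counts between High and Low stand beside 28.2% of all genes called higher and 9.61% lower, and they depend on the scaling. Of 3 oxysterol genes, 2 rose between High and Low, the cholesterol 25-hydroxylase *Ch25h* and the sterol 27-hydroxylase *Cyp27a1*. *Ch25h* was above background in the 4 High samples and in no Low or kept adult sample, at least 2.14-fold higher than in Low (limma adjusted p = 1e-05) and at least 3.38-fold higher than in adult samples (limma adjusted p = 0.00026). Of 7 phospholipase and eicosanoid genes, 3 rose between High and Low, a share not far from that of the panel: the phospholipases D *Pld1* and *Pld2*, and *Ptgs2*, the inducible cyclooxygenase. The second list had 1 gene higher and 3 lower with equal totals and 6 higher with positive-control scaling. Between High and adult, where 29.2% of all genes were called higher and 7.66% lower, it had 3 higher and 1 lower as deposited. The lower one was *Pla2g5*, below background in both groups. *Ptgs2* had means of 4220 in High, 934 in Low and 470 in adult samples and was higher in High than in Low by 2.10 ± 0.33 (SE), and both *Ptgs2* and *Ch25h* kept this call in all 7 other settings, *Pld1* in 6, *Pld2* in 5 and *Cyp27a1* in 4. Of 5 sphingolipid genes, 1 rose, the sulfatide-forming sulfotransferase *Gal3st1*, which was at least 1.46-fold higher in High than in Low and kept its call in 6 of 7 other settings, whereas with equal totals the list had none higher and 3 lower. Between Low and adult, *Ptgs2* rose by 1.03 ± 0.28 (SE) and no other gene of these 3 lists was called. This call was kept in 1 of 7 other settings.

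A list of 6 genes, the hypoxia-inducible factor gene *Hif1a* and targets other than *Hilpda*, had calls in both directions as deposited. Between P-ERK1/2 High and Low, 2 rose and 2 fell, where 37.8% of all genes were called, and the calls ran in 1 direction with the 6 housekeeping genes (3 higher), equal totals (3 lower), no scaling (3 higher) and positive-control scaling (4 higher). The growth factor *Vegfa* rose by 1.74 ± 0.26 (SE), with means of 761 and 220, and the histone demethylase *Kdm3a* by 1.60 ± 0.25 (SE), with means of 392 and 126. The glucose transporter *Slc2a1* had means of 108 and 242 (-1.24 ± 0.31, SE) and the mitophagy receptor *Bnip3* 192 and 455 (-1.31 ± 0.29, SE), the direction of *Hilpda*. *Slc2a1* and *Bnip3*, like *Hilpda*, had the opposite sign without scaling and with positive-control scaling. Between Low and adult, *Ldha*, which makes lactate, rose by 1.30 ± 0.19 (SE), *Hif1a* itself fell by 1.09 on the log2 scale (SE 0.14), and the other 4 were not called, where 10.8% of all genes were. *Ldha* kept its call in 4 of 7 other settings and *Hif1a* in 6. The list median was -0.06 between High and Low and 0.15 between Low and adult, against 0.26 and 0.10 for all genes. The 3 matches to the HIF letters near the *Hilpda* start are a description of sequence, and binding was not measured.

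**Figure D4:**
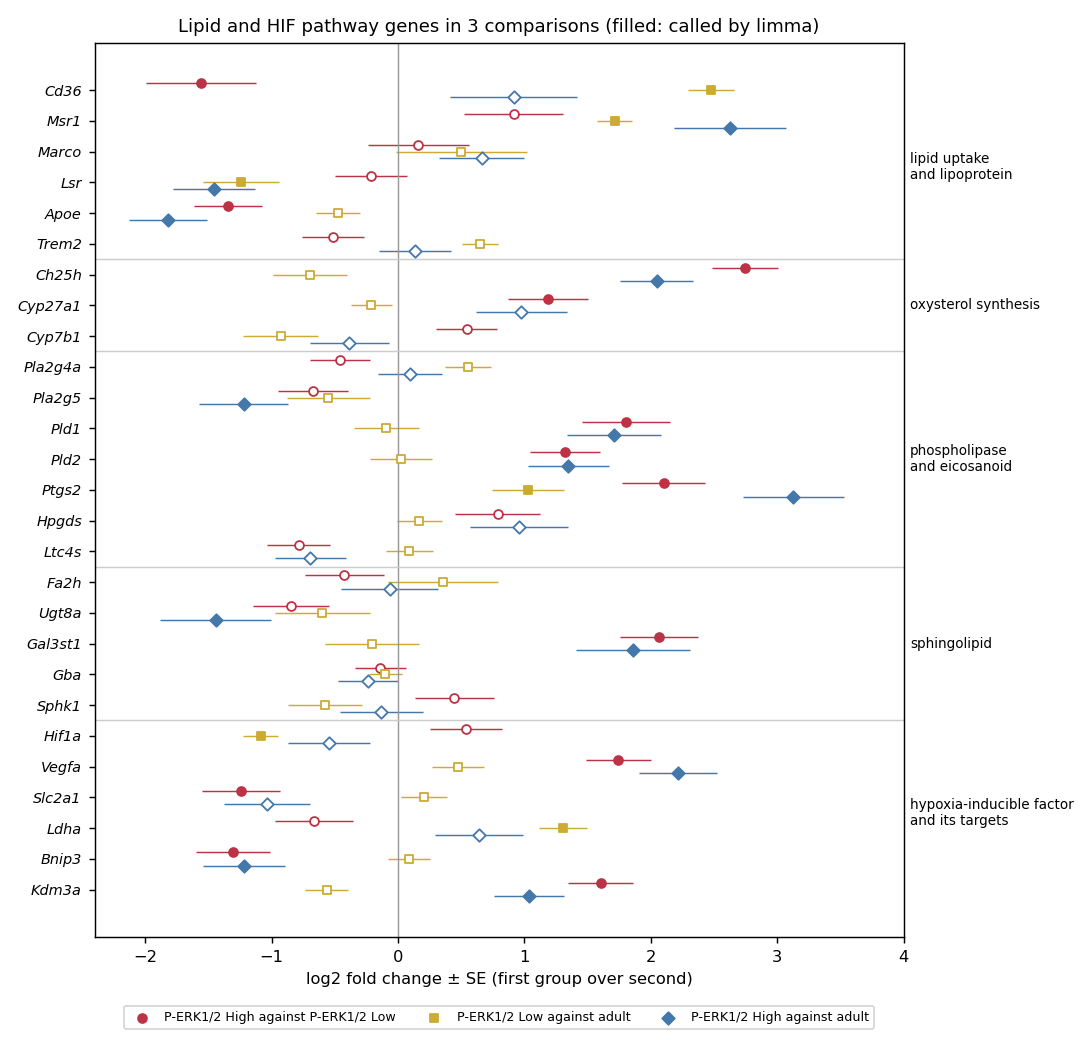
Log2 fold changes ± SE (horizontal axis) of 27 genes in 5 lists of lipid and hypoxia-inducible factor genes, in the 3 comparisons. Filled symbols were called by limma and open ones were not. *Cd36* lies left of 0 between P-ERK1/2 High and Low and right of 0 between Low and adult, and *Ptgs2* and *Vegfa* lie right of 0 in all 3.

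Several markers of astrocytes and endothelium were higher in P-ERK1/2 High, where *Fabp5* and *Cideb* were highest, and of the whole panel 28.2% was called higher and 9.61% lower in High than in Low. Of 8 microglial markers, all 8 were above background in every High sample, 5 in every adult sample and 2 in every Low sample (*Csf1r*, at 2602.17 to 2937.21, and *Olfml3*), while *P2ry12* and *Gpr34* were above background in no Low sample. Between High and Low, 4 of the 8 were called higher, with a list median of 0.94 against 0.26 for all genes. *Csf1r*, whose probe read higher than the others, ran the other way without overlap, at 1194.79 to 1838.09 in High, and the summed value of the 8 was 2851 to 3544 in High, 3371 to 3692 in Low and 3487 to 3801 in adult samples. Of 6 astrocyte markers, 3 were called higher in High than in Low, and the summed value of the 6 was 1412 to 2143 in High, 580.5 to 832.8 in Low and 467 to 676.6 in adult samples. Most of the High sum came from *Gja1* (574.94 to 1080.72) and *Sox9* (415.09 to 671.88). *Slc1a3* (14.6 to 46.26) and *S100b* (27.87 to 47.47) did not read higher in High. Their Low values were 40.66 to 86.15 and 37.45 to 57.43, all below background. Of 7 endothelial markers, 4 were called higher in High than in Low, at sums of 676.8 to 1277 in High, 227.9 to 377.4 in Low and 299.3 to 437.3 in adult samples. Of 10 T and NK cell markers, 3 were called higher in High than in Low, at sums of 306.8 to 1119 in High, 172.3 to 259.4 in Low and 144.4 to 301.4 in adult samples. *Cd3e* alone read 111.99 to 800.54 in High, where *Cd6*, *Cd8a* and *Klrb1* were above background in no sample. Of the border macrophage and monocyte markers 2 of 5 were called higher, of B cell markers 2 of 6, of oligodendrocyte markers 1 of 8 and of neutrophil markers 1 of 6, the last with sums of 300.3 to 780.4 in High, 402 to 494.9 in Low and 674.2 to 1114 in adult samples, neuronal markers were called in both directions (1 higher and 2 lower of 9), and the 3 mast cell markers were above background in no sample. The list medians of neutrophil (-0.29), B cell (-0.03), oligodendrocyte (0.14) and neuronal markers (-0.18) lay below that of all genes. *Ly6g* was not above background in any kept sample. None of these markers was listed at 1 in a kept sample. In Low samples at most 2 of the astrocyte, 1 of the endothelial and 0 of the T and NK cell markers were above background. The part of these cells in the *Fabp5*, *Cideb* and *Hilpda* differences was not tested.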

How the data were processed

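RNA of sorted microglia was measured in 12 samples. The deposited values are a signal that the authors made in nSolver (version not given in the sources used here) by multiplying each count by 1 factor per sample, with no background subtracted. All 12 columns were mapped by sample number and 0 were left over. Dividing each column by its step gave whole counts to within 0.1 for 99.83% of gene values, from which depth and background (mean plus 2 SD of 8 negative controls) were taken. Values were tested as log2(value + 1) with limma 3.58.1 in R 4.3.3, between the 2 groups compared, with no filter. The test was tried on simulated data. Named were the 4 members, genes of the lists, the 3 genes most correlated with each member, and housekeeping genes where scaling is discussed. Pathway and cell type lists were compiled from the panel's names, and members and lists were chosen with earlier results of these data known. Of 770 names, 763 matched a RefSeq symbol and 7 a synonym. Alternatives varied pseudocount, filter, scaling, spread, threshold and samples. Scaling to the 6 positive controls and subtraction of the mean negative control were chosen after seeing the data. Where no sample of 1 group was above background, a fold is read only as a lower bound above 1, and fitted values of such genes elsewhere follow the call and are no folds.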

Additional observations from a re-analysis of the deposited data

Results flagged for a closer look

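Within a group of 4, a sample was picked out when its gap to the nearest other sample filled most of the group's range (Dixon's criterion at the 95% level), which chance gives for about 1 in 20 groups. *Fabp5* in P-ERK1/2 Low sample 12 was 4159.68, where the other 3 samples were 2906.29 to 3062.97. *Cideb* in P-ERK1/2 High sample 7 was 165.07, where the others were 64.62 to 76.48. *Cideb* in P-ERK1/2 Low sample 9 was 40.13, where the others were 12.31 to 14.02, all below background. Without sample 12, *Fabp5* read 1.44 between High and Low, still called by limma, and *Cideb* was still called there without sample 7 or without sample 9.

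Adult sample 11, which entered the adult comparisons only as an alternative, was above all kept adult samples in 3 members and above its own background. It read 9096.14 for *Fabp5* (kept adult samples 1558.73 to 1951.7), 141.95 for *Hilpda* (76.86 to 86.48) and 48.09 for *Cideb* (15.14 to 39.53). Its positive control probes had a geometric mean of 286 counts, against 954 to 1460 in the other samples, and 16 of its gene values are listed at 1. It had 1464449 counts and 688 genes above background. High samples had 650965 to 1539936 counts and kept adult samples 137980 to 326575. Its marker sums for astrocytes (2163), endothelium (825.3), T and NK cells (782.1) and B cells (237.6) were above those of all kept adult samples. Its neutrophil (558.5), neuronal (197.8) and mast cell (23.5) sums were below them, and the others were within their range.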

How the results depend on the processing

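Of 179 alternative fold changes of members, 146 kept direction and side of the call rule, and of 60 alternative counts of called genes, 53 were within 1.5 times the reported count, whatever their split by direction. A difference that was not called and stayed so counts as kept whatever its size, as *Fabp5* between Low and adult at 0.07 without scaling. The settings that changed only spread or threshold could not move a fold change. Values are log2 fold changes or counts of genes called by limma, and those of *Cideb*, below background in Low and adult samples, are fitted values that follow the call and are no folds. *Fabp5* between High and Low was not called with quantile normalization (0.80), equal totals (0.28) or background subtraction (0.96), nor was *Cideb* with equal totals (1.25). *Hilpda* between High and Low was called with median-of-ratios scaling (-1.24), quantile normalization (-1.26), equal totals (-2.01) and background subtraction (-1.30), and changed sign without scaling (0.67) and with positive-control scaling (0.98). Between Low and adult, *Fabp5* was called with background subtraction (1.17) and shrank to 0.47 with quantile normalization, 0.53 with equal totals, 0.32 with sample 11, 0.07 without scaling and 0.11 with positive-control scaling. *Cideb* was called without scaling (-1.27) and with positive-control scaling (-1.22) and changed sign with background subtraction (0.23). *Hilpda* there was not called with a pseudocount of 20 (0.99), equal totals (0.77), no scaling (0.30), positive-control scaling (0.33) or sample 11 (0.94). Between High and adult, *Fabp5* was not called with equal totals (0.82) or sample 11 (1.63), nor *Cideb* with equal totals (0.28). *Hilpda* changed sign there with median-of-ratios scaling (-0.21), quantile normalization (-0.25), equal totals (-1.24, called lower) and sample 11 (-0.045). The cause was not tested.

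Between High and Low, 291 genes were called (217 higher, 74 lower), 596 without scaling (595 and 1) and 659 with positive-control scaling (659 and 0), and the split was 177 and 121 with median-of-ratios scaling, 361 and 4 with 6 housekeeping genes, 148 and 142 with quantile normalization and 59 and 312 with equal totals. Between Low and adult, 83 (62 and 21) became 240 (8 and 232) without scaling, 226 (8 and 218) with positive-control scaling, 143 (89 and 54) with background subtraction and 34 (21 and 13) with sample 11, and the split was 51 and 27 with median-of-ratios scaling, 52 and 36 with quantile normalization and 24 and 59 with equal totals. Between High and adult, 284 (225 and 59) became 49 (49 and 0) with sample 11, and the split was 164 and 114 with median-of-ratios scaling, 352 and 5 with 6 housekeeping genes, 144 and 139 with quantile normalization, 40 and 362 with equal totals, 347 and 2 without scaling and 420 and 1 with positive-control scaling.

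With 1 sample left out, *Hilpda* between High and Low ran from -1.11 to -0.72 and passed the fold limit without High sample 2 (-1.07), 5 (-1.11) or 8 (-1.06) or Low sample 3 (-1.004), 6 (-1.01) or 9 (-1.04). *Fabp5* between Low and adult ran from 0.80 to 1.02 and was called without adult sample 4 (1.02). The other 7 member results kept their call and direction in each of these, and the 3 counts were 235 to 310, 75 to 95 and 225 to 303. *Cidea* has no fold and is not among these results. The planned count tests were not run. No paired analysis was possible because each sample number is used once and the labels do not say which High and Low samples came from the same animals. *Hilpda*, *Cideb* and *Cidea* are limited by counts of 161 or fewer in the kept samples.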
